A study of Mus musculus with 6 samples.

Results

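Expression of 44 genes of the BMP, TGF-beta and Nodal signalling pathways was examined in differentiated mouse embryonic stem cells with and without induced HOXA13. The genes were chosen by name, as 13 ligands, 11 receptors and co-receptors, 7 Smads, 8 antagonists and matrix regulators and 5 targets, out of 24393 genes listed in the count tables. The question was which of these genes differed in RNA level between HOXA13 and CONTROL cells.

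These pathways share one design. A secreted ligand brings together type I and type II receptor kinases, the receptor phosphorylates a receptor Smad, and the Smad enters the nucleus with Smad4 to change transcription. BMP ligands act mainly through Smad1, Smad5 and Smad9, whereas TGF-beta, activin and Nodal act through Smad2 and Smad3. Secreted antagonists such as Noggin and Follistatin bind the ligands, Lefty proteins block Nodal from outside the cell, and Smad6 and Smad7 limit the response from within it. In the early embryo, Nodal signalling directs cells towards endoderm and mesoderm, and BMP signalling later patterns the hindgut and its surrounding mesenchyme.

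The cells were KH2 mouse embryonic stem cells (strain label C57/BL/6), a line with a locus for doxycycline-inducible genes, and the HOXA13 group carried FLAG-tagged human HOXA13 at that locus. Cells of both groups were described by a single protocol. They were kept on irradiated 3T3 fibroblasts, then grown on M15, a feeder line of mesodermal origin, for 6 days in medium with Noggin, Activin-A, CHIR and basic FGF, so that an activin ligand and a BMP antagonist were in the medium throughout. Doxycycline at 1.25 µg/ml was given from day 4, day 6 was the day of sorting for the cells that stained for both CXCR4 and E-cadherin, and the sorted cells were kept in doxycycline for another day. Whether CONTROL cells also received doxycycline is not stated separately. Each group comprised 3 samples, described by the study as biological replicates, and how many clones they represent is not given, so a clone effect and a HOXA13 effect cannot be told apart.

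Total counts ranged from 12279884 to 17331638 per library, and 3 counts corresponded to between 0.176 and 0.240 normalised CPM (counts per 1000000 of the scaled library size), a limit that covers counting error only. The human HOXA13 gene was introduced into the cells, and a row under the human identifier ENSG00000106031, which the files do not pair with a symbol, held 0 counts in each CONTROL library and 2497, 7666 and 6572 counts in HOXA13 replicates 1, 2 and 3. The mouse gene Hoxa13 had at most 10 counts in any library. The 12 markers of definitive endoderm, the germ layer of the gut lining, summed to 122 to 192 CPM in CONTROL, against 81.3 to 122 CPM in HOXA13. Of the 10 that could be tested, 4 had a log2 difference above 0 and 6 below, with a median of -0.10. In this list Sox17 did not exceed 4.84 CPM, Foxa2 5.04 CPM and Gsc 1.29 CPM, whereas Eomes ran from 24.4 to 111 CPM and Gata4 from 13.1 to 31.9 CPM. The 13 markers of extraembryonic endoderm summed to 46.5 to 157 CPM in CONTROL, against 34.2 to 52.5 CPM in HOXA13. Among them Afp and Ttr had 0 counts throughout, Dab2 ran from 4.72 to 106 CPM, and all 9 that could be tested had a log2 difference below 0, with 0 past the adjusted threshold and 1 at an unadjusted p threshold of 0.05. CONTROL replicate 2 stood apart from the other CONTROL libraries. The summed level of 20 mesenchymal markers was 9259, 855 and 6485 CPM in CONTROL replicates 1, 2 and 3, against 405 to 1527 CPM in HOXA13. That of 20 epithelial markers was 2432, 8906 and 6082 CPM in CONTROL, against 11203 to 13062 CPM in HOXA13, so that here the groups lay apart. They also lay apart for 12 markers of the mesonephric feeder, at 31.7, 40.1 and 39.1 CPM in CONTROL, against 21.6, 27.7 and 17.8 CPM in HOXA13. Hoxa11, Hoxd11 and Tbx18 had the highest means of this list in CONTROL, at 8.45, 7.57 and 7.32 CPM. Of the 9 that could be tested, 8 had a log2 difference below 0 and 1 above. Osr2 went the other way without overlap, at 0, 0.48 and 0.60 CPM in CONTROL, against 1.77, 2.17 and 1.58 CPM in HOXA13. The part of feeder cells in the pathway values was not tested. The sum over 14 pluripotency markers reached 1577 CPM in CONTROL replicate 2, whereas it was 227 and 317 CPM in CONTROL replicates 1 and 3 and 593 to 898 CPM in HOXA13. In bulk RNA, fewer cells of a type and less RNA per cell cannot be told apart.

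**Figure D1:**
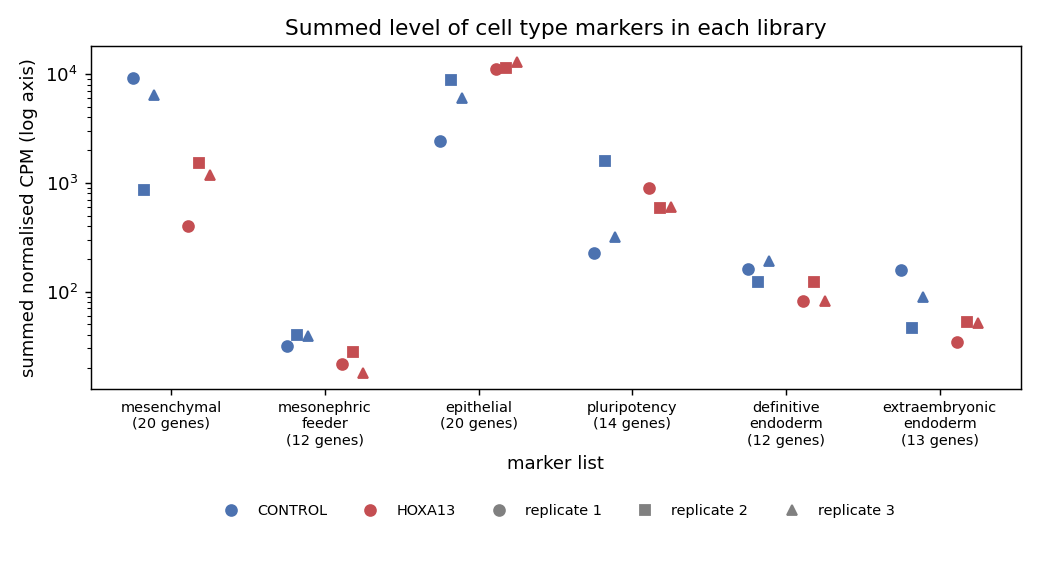
Summed normalised CPM (log axis) of 6 marker lists in each CONTROL (blue) and HOXA13 (red) library, with the replicate number given by the shape of the point. CONTROL replicate 2 lies among the HOXA13 libraries for the mesenchymal list, at 855 CPM, and above all other libraries for the pluripotency list, at 1577 CPM.

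Of the 44 genes, 43 had enough reads to be tested and 1 passed the test. This was Tgfbi, which rose 3.32-fold in HOXA13 cells. The count of 1 in 43 compares with 0.309% of all 13600 genes tested, at an adjusted p threshold of 0.05 (edgeR quasi-likelihood test, Benjamini-Hochberg adjustment). At an unadjusted p threshold of 0.05 the count was 6 of 43, of which 1 was higher and 5 were lower in HOXA13. Of all genes 14.1% had such a p, 8.05% higher and 6.02% lower. For 11 of 43 genes (25.6%) the HOXA13 and CONTROL libraries did not overlap, 5 lying higher and 6 lower, against 20.0% of all genes (11.5% higher and 8.52% lower). The share of pathway genes that separated by group was thus near that of other genes. Their median log2 difference was -0.17, beside -0.01 over all genes, and it was -0.016 without CONTROL replicate 2 and -0.059 without HOXA13 replicate 1.

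The classes differed in the sign of their median. Ligands had a median log2 difference (HOXA13 minus CONTROL) of -0.46, with 4 of 12 above 0. Receptors had a median of 0.27, with 8 of 11 above 0. The medians of Smads, of antagonists and matrix regulators, and of targets were -0.17, -0.22 and -0.28. Without CONTROL replicate 2 the median of the ligands was -0.0015 and that of the targets 0.18. The median of the Smads was -0.0010 without CONTROL replicate 3, -0.060 without HOXA13 replicate 1 and -0.33 without HOXA13 replicate 2, and that of the antagonists was -0.56 in DESeq2, which gave no p for Lefty2. No class was tested as a class, since its genes are not replicates of the condition.

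**Figure D2:**
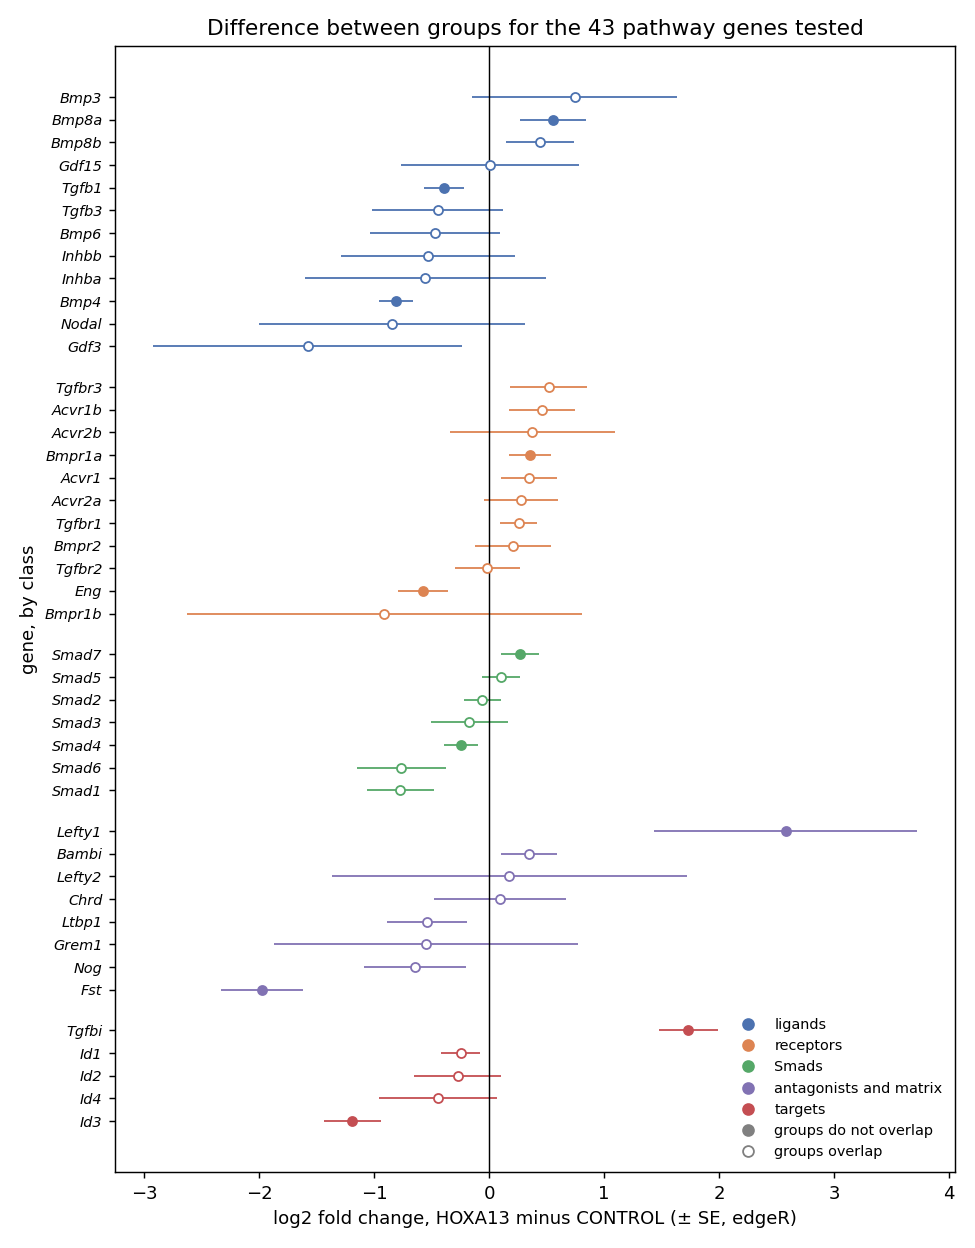
Log2 difference between HOXA13 and CONTROL (HOXA13 minus CONTROL, with its standard error from edgeR) for the 43 genes tested, coloured by class, with filled points where the libraries of the groups did not overlap. Tgfbi at 1.73 and Lefty1 at 2.58 lie farthest to the right and Fst at -1.97 farthest to the left.

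Tgfbi and Id3 are both read as targets, the former as a secreted matrix protein named for its induction by TGF-beta and the latter as an inhibitor of helix-loop-helix factors that BMP signalling induces. Bmp4, the ligand of highest level here, can induce the Id genes. The 250 bases upstream of the start of each gene are shown because these 3 genes gave among the smallest p-values. They are from RefSeq on GRCm38.p6, at chr13:56609336-56609585 (plus strand) for Tgfbi, chr14:46390670-46390919 (minus strand) for Bmp4 and chr4:136143572-136143821 (plus strand) for Id3. Capitals mark matches on either strand to the Smad-binding letters CAGAC, which on the opposite strand read as GTCTG, and to GGCGCC, another Smad-binding form that is its own reverse complement. The letters CAATAAA, which HOX13 proteins are known to bind, had no match in these windows.
Tgfbi: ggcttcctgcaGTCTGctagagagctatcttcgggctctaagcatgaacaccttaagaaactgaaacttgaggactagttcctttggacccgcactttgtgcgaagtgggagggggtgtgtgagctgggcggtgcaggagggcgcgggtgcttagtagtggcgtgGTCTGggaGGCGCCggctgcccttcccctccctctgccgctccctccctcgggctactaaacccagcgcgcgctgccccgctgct
Bmp4: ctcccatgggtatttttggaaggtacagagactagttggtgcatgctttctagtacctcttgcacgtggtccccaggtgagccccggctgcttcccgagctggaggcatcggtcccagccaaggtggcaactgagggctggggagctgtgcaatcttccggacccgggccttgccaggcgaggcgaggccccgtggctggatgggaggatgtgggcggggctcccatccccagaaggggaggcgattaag
Id3: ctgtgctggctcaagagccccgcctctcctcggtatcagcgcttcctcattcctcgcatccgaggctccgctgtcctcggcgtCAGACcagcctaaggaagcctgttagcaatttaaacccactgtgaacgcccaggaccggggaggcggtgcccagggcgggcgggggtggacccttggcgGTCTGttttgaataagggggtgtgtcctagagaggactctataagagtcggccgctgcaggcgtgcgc
The Tgfbi window held 2 matches to CAGAC, the nearest starting 85 bases upstream, and 1 to GGCGCC. Id3 had 2 matches to CAGAC, and Bmp4 had none to either. Among 32851 mouse promoter windows of this length, 42.2% held CAGAC, 9.59% held GGCGCC and 4.2% held CAATAAA, so a match to CAGAC is common and describes letters, not binding. Of the 44 genes, 31 had such a window in the table, and Fst did not.

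Among ligands, Bmp4 (mm9 chromosome 14, 47003195 to 47010344, minus strand) stood at 157, 149 and 152 CPM in CONTROL replicates 1, 2 and 3 and at 96.9, 78.2 and 85.6 CPM in the HOXA13 replicates. The CONTROL libraries lay close together, CONTROL replicate 2 included, and every HOXA13 library was below them. The mean of CONTROL was 152 ± 4.41 CPM and that of HOXA13 86.9 ± 9.42 CPM (SD, n = 3 each), a 1.75-fold ratio. The log2 difference of -0.81 (SE 0.15) had an adjusted p of 0.0768 in edgeR and did not pass the threshold. It passed in DESeq2 (adjusted p 0.00101) and in edgeR without CONTROL replicate 2 (adjusted p 0.0084). Genes of chromosome 14 had a median log2 difference of 0.33, and measured against its own chromosome Bmp4 differed by -1.17 (SE 0.20, adjusted p 0.0805, edgeR). By library, the chromosome median lay at -0.39, 0.20 and -0.30 in CONTROL replicates 1, 2 and 3, on the log2 scale. In HOXA13 it lay at 0.20, 0.14 and 0.17, so CONTROL replicate 2 sided with HOXA13 on this chromosome. The CONTROL levels of Bmp4, even in CPM, were thus not even relative to chromosome 14.

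Tgfb1, which encodes the founding TGF-beta ligand, showed 53.6, 52.5 and 48.2 CPM in CONTROL, against 42.3, 39.0 and 36.3 CPM in HOXA13. The groups did not overlap, yet the log2 difference of -0.39 (SE 0.18) had an adjusted p of 0.373. Bmp8a, a BMP of the germ line and placenta, gave 8.58, 11.1 and 9.37 CPM against 15.2, 12.7 and 14.9 CPM. Here the HOXA13 libraries were the higher ones (log2 difference 0.56, SE 0.29, adjusted p 0.441). Its neighbour and near copy Bmp8b was at 40.7, 60.0 and 89.0 CPM in CONTROL, against 67.0, 91.4 and 99.4 CPM in HOXA13, with overlap (log2 difference 0.44). Of the 75-base stretches of their transcripts, 6.62% in Bmp8a and 5.55% in Bmp8b were shared between the pair, so part of their counts is uncertain.

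Nodal and Gdf3, ligands of the activin type that are expressed in pluripotent cells and the early embryo, were highest in CONTROL replicate 2. Nodal was at 1.42, 33.9 and 3.52 CPM in CONTROL, against 15.7, 3.92 and 2.06 CPM in HOXA13. Gdf3 was at 1.70, 21.4 and 0.375 CPM in CONTROL, against 5.61, 0.644 and 1.64 CPM in HOXA13. Within each group a single library was the high one, CONTROL replicate 2 and HOXA13 replicate 1, and these were also the libraries with the highest pluripotency marker sum of their groups, at 1577 and 898 CPM. The log2 differences were -0.85 (SE 1.16) for Nodal and -1.58 (SE 1.34) for Gdf3. Without CONTROL replicate 2 the signs turned, to 1.52 and 1.31, with adjusted p-values of 0.307 and 0.529 (edgeR). The part of the pluripotency markers in these values was not tested.

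Inhba, the subunit of activin A, did not follow Nodal and Gdf3. Its level was 59.9, 4.00 and 62.8 CPM in CONTROL, against 3.46, 58.8 and 23.8 CPM in HOXA13, so it was low in the very libraries in which Nodal and Gdf3 were high. The log2 difference was -0.56 with an SE of 1.05. It was -0.23, -1.10 and -0.17 without CONTROL replicate 1, 2 or 3, -0.045 without HOXA13 replicate 1 and -1.65 without HOXA13 replicate 2. The other ligands tested, Bmp3, Bmp6, Gdf15, Tgfb3 and Inhbb, lay between 0.800 and 46.0 CPM, with log2 differences from -0.53 to 0.74 and adjusted p-values of at least 0.781. Bmp5 had 3 counts in CONTROL replicate 1 and 0 elsewhere and was not tested. Its exons overlap a non-coding transcript on the other strand over 46.7% of their length.

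**Figure D3:**
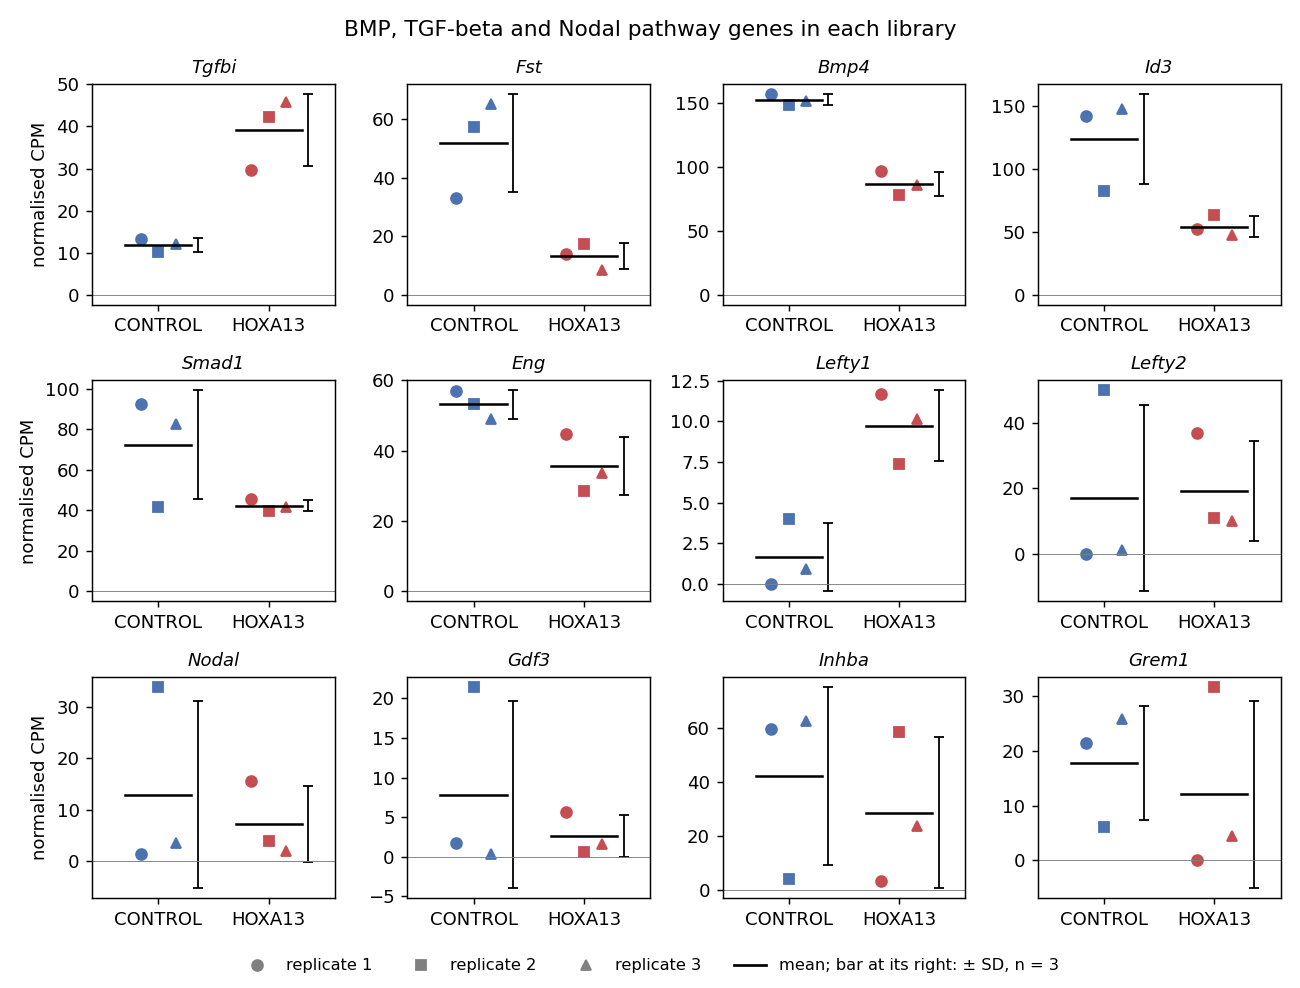
Normalised CPM of 12 pathway genes in each CONTROL (blue) and HOXA13 (red) library, on axes that differ between panels, with the group mean as a line and the SD (n = 3) as a bar. Tgfbi, Fst, Bmp4, Id3, Eng and Lefty1 separate by group, whereas Nodal, Gdf3 and Lefty2 are highest in CONTROL replicate 2 and Inhba and Grem1 lowest in HOXA13 replicate 1.

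The log2 differences of receptors ran from -0.91 to 0.52, and those of ligands from -1.58 to 0.74. Bmpr1a, a type I BMP receptor, was at 139.7, 213 and 176 CPM in CONTROL, against 227, 235 and 214 CPM in HOXA13. The groups did not overlap, but the lowest HOXA13 library and CONTROL replicate 2 were nearly level. The log2 difference of 0.35 (SE 0.18, adjusted p 0.444) became 0.04 when measured against the other genes of chromosome 14. The median of that chromosome was low in CONTROL replicates 1 and 3 (-0.39 and -0.30) but not in CONTROL replicate 2 (0.20). Bmpr2, the type II BMP receptor, was at 196, 78.8 and 194 CPM in CONTROL, against 154, 212 and 175 CPM in HOXA13. Only CONTROL replicate 2 lay low, and the log2 difference of 0.21 (SE 0.33) turned to -0.13 without it. It was -0.33 relative to chromosome 1, on which Bmpr2 lies and whose genes had a median log2 difference of 0.54, with 92.2% higher in HOXA13.

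Eng, the endothelial co-receptor endoglin, was at 57.1, 53.3 and 49.1 CPM in CONTROL, against 44.7, 28.6 and 33.6 CPM in HOXA13. Each HOXA13 library was below each CONTROL library, with a log2 difference of -0.58 (SE 0.22) and an adjusted p of 0.292. Eng shares 124 exon bases on the same strand with its neighbour Ak1, an adenylate kinase that fell by 1.503 on the log2 scale (adjusted p 0.0466, edgeR), and the part of Ak1 reads in the Eng counts was not tested. The other 8 receptors, Bmpr1b, Tgfbr1, Tgfbr2, Tgfbr3, Acvr1, Acvr1b, Acvr2a and Acvr2b, had log2 differences from -0.91 to 0.52. Their adjusted p-values were at least 0.541, and every one of them overlapped between groups. They bind BMP, TGF-beta and activin ligands, and Bmpr1b was the least expressed, with 0 counts in CONTROL replicate 2 and HOXA13 replicate 1.

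Among Smads, the BMP effector Smad1 was at 92.6, 41.8 and 82.7 CPM in CONTROL, against 45.5, 40.0 and 41.6 CPM in HOXA13. CONTROL replicate 2 lay within the narrow HOXA13 range and the other CONTROL libraries far above it. The log2 difference was -0.77 (SE 0.29, adjusted p 0.289), and without CONTROL replicate 2 it was -1.07 with an adjusted p of 0.00472 (edgeR). The mesenchymal marker sum was split in the same way. It was 9259 and 6485 CPM in CONTROL replicates 1 and 3, against 855 CPM in CONTROL replicate 2 and 405 to 1527 CPM in HOXA13. The part of mesenchymal cells in the Smad1 values was not tested. Smad4, the common partner, stood at 108, 119 and 121 CPM in CONTROL, against 88.1, 105 and 99.7 CPM in HOXA13, without overlap. Its log2 difference was only -0.25 (SE 0.15, adjusted p 0.527).

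The inhibitory Smads differed in sign. Smad7, which blocks TGF-beta and BMP receptors, was at 162, 213 and 221 CPM in CONTROL, against 247, 231 and 240.3 CPM in HOXA13. Each HOXA13 library was the higher, by 0.27 on the log2 scale (SE 0.17, adjusted p 0.532). Smad6, which acts mainly on BMP signals, was at 12.4, 8.0 and 18.9 CPM in CONTROL, against 7.99, 7.09 and 8.06 CPM in HOXA13. There CONTROL replicate 2 lay within the HOXA13 range (log2 difference -0.76, SE 0.38, adjusted p 0.429). Smad2, the activin and Nodal effector, was at 122, 111 and 149.9 CPM in CONTROL, against 117, 124 and 126 CPM in HOXA13, a log2 difference of -0.06 (SE 0.16). The remaining members of this class, Smad3 and Smad5, had log2 differences of -0.17 and 0.11.

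Of the antagonists, Fst, which encodes the activin-binding protein follistatin (mm9 chromosome 13, 115242470 to 115249159, minus strand), had the lowest p. It was at 33.2, 57.3 and 65.2 CPM in CONTROL, against 14.1, 17.2 and 8.37 CPM in HOXA13. All HOXA13 libraries were well below all CONTROL libraries, with means of 13.2 ± 4.49 and 51.9 ± 16.7 CPM (SD, n = 3 each), so that CONTROL was 3.93-fold the higher. The log2 difference of -1.97 (SE 0.36) had an adjusted p of 0.0755 in edgeR. DESeq2 gave an adjusted p of 2.39e-05 for it and edgeR without CONTROL replicate 2 gave 0.0109.

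Lefty1 and Lefty2, Nodal antagonists that Nodal itself induces, lie side by side on chromosome 1 (mm9 182865153 to 182868531 and 182823239 to 182829234, plus strand). Lefty1 was at 0, 4.00 and 0.900 CPM in CONTROL, against 11.7, 7.38 and 10.1 CPM in HOXA13. Every HOXA13 library was above every CONTROL library, at a 5.96-fold ratio of means, but the levels are low and CONTROL replicate 1 had 0 counts. The log2 difference of 2.58 (SE 1.146) had an adjusted p of 0.367. Relative to the other genes of chromosome 1 it was 2.00 (adjusted p 0.539), and without CONTROL replicate 2 it was 4.41 with an adjusted p of 0.0226 (edgeR). Lefty2 was at 0, 49.8 and 1.05 CPM in CONTROL, against 36.7, 10.8 and 9.94 CPM in HOXA13. CONTROL replicate 2 was here the highest of the 6 libraries and the other CONTROL libraries the lowest. Its log2 difference of 0.18 (SE 1.55) changed sign under 4 of the alternatives and was 5.16 without CONTROL replicate 2 (adjusted p 0.0158). The pair shared 11.2% of the 75-base stretches of Lefty1 and 7.21% of those of Lefty2. The pluripotency marker sum, too, was highest in CONTROL replicate 2, at 1577 CPM. It was 227 and 317 CPM in CONTROL replicates 1 and 3, below the 593 to 898 CPM of HOXA13. The part of the pluripotency markers in the Lefty values was not tested.

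The BMP antagonists Nog, Grem1 and Chrd showed no separation by group. Nog (Noggin) was at 36.5, 12.9 and 19.6 CPM in CONTROL, against 9.07, 20.0 and 14.9 CPM in HOXA13 (log2 difference -0.65, SE 0.44), values that are of the cells' own transcript and not of the Noggin protein added to the medium. The Nog difference was -0.17 without CONTROL replicate 1 and -0.96 without HOXA13 replicate 2. Relative to the other genes of chromosome 11, on which Nog lies, it was -0.42 (adjusted p 0.721, edgeR). The median of that chromosome was high in CONTROL replicate 1 only, at 0.39 on the log2 scale, against -0.12 to -0.01 in the other libraries. Grem1 (Gremlin) was at 21.3, 6.00 and 25.8 CPM in CONTROL, against 0, 31.6 and 4.49 CPM in HOXA13. Chrd (Chordin) was at 2.48, 5.68 and 6.97 CPM in CONTROL, against 2.84, 6.33 and 6.97 CPM in HOXA13. As with Inhba, Grem1 was lowest where the mesenchymal marker sum was lowest in each group, at 855 CPM in CONTROL replicate 2 and 405 CPM in HOXA13 replicate 1. The part of mesenchymal cells in these values was not tested.

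Bambi, a decoy receptor without a kinase, was at 22.6, 32.5 and 20.7 CPM in CONTROL, against 36.1, 29.5 and 30.7 CPM in HOXA13. Its log2 difference was 0.35 (SE 0.24, adjusted p 0.592), with CONTROL replicate 2 among the HOXA13 libraries. Ltbp1, which tethers latent TGF-beta to the matrix, was at 177, 75.8 and 203 CPM in CONTROL, against 80.6, 117 and 116 CPM in HOXA13. CONTROL replicate 2 was the lowest of the 6 libraries, and the log2 difference of -0.54 (SE 0.35, adjusted p 0.552) became -0.88 without it (adjusted p 0.0187, edgeR). It was -0.29 without CONTROL replicate 3 (adjusted p 0.885).

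Among targets, Tgfbi (mm9 chromosome 13, 56710920 to 56740923, plus strand) was at 13.2, 10.1 and 12.2 CPM in CONTROL, against 29.6, 42.3 and 45.8 CPM in HOXA13. The CONTROL libraries were alike, CONTROL replicate 2 included, and the lowest HOXA13 library was above them all. Means were 11.8 ± 1.59 and 39.2 ± 8.54 CPM (SD, n = 3 each), and Tgfbi rose by 1.73 on the log2 scale (SE 0.26, adjusted p 0.047, edgeR). The adjusted p lay close to the threshold. It was 0.129, 0.218, 0.0737, 0.266 and 0.388 when CONTROL replicate 1, CONTROL replicate 3, HOXA13 replicate 1, HOXA13 replicate 2 or HOXA13 replicate 3 was left out, and 0.00632 without CONTROL replicate 2, with log2 differences between 1.59 and 1.89.

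Id3 was at 142, 82.3 and 147 CPM in CONTROL, against 51.9, 63.3 and 47.3 CPM in HOXA13. The HOXA13 libraries were all lower, the nearest CONTROL library being replicate 2. CONTROL had 2.28 times the HOXA13 mean (log2 difference -1.19, SE 0.25), with an adjusted p of 0.102 in edgeR, 0.00133 in DESeq2 and 0.00184 in edgeR without CONTROL replicate 2. The other Id genes did not separate. Id1 was at 78.7, 93.1 and 103 CPM in CONTROL, against 72.6, 74.6 and 84.5 CPM in HOXA13, a log2 difference of -0.25 (SE 0.17, adjusted p 0.582). Id2 was at 78.7, 179 and 86.2 CPM against 135, 84.2 and 65.4 CPM, again highest in CONTROL replicate 2 and HOXA13 replicate 1, and its log2 difference of -0.28 turned to 0.18 without CONTROL replicate 2. Id4 had a log2 difference of -0.45 (adjusted p 0.769).

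**Figure D4:**
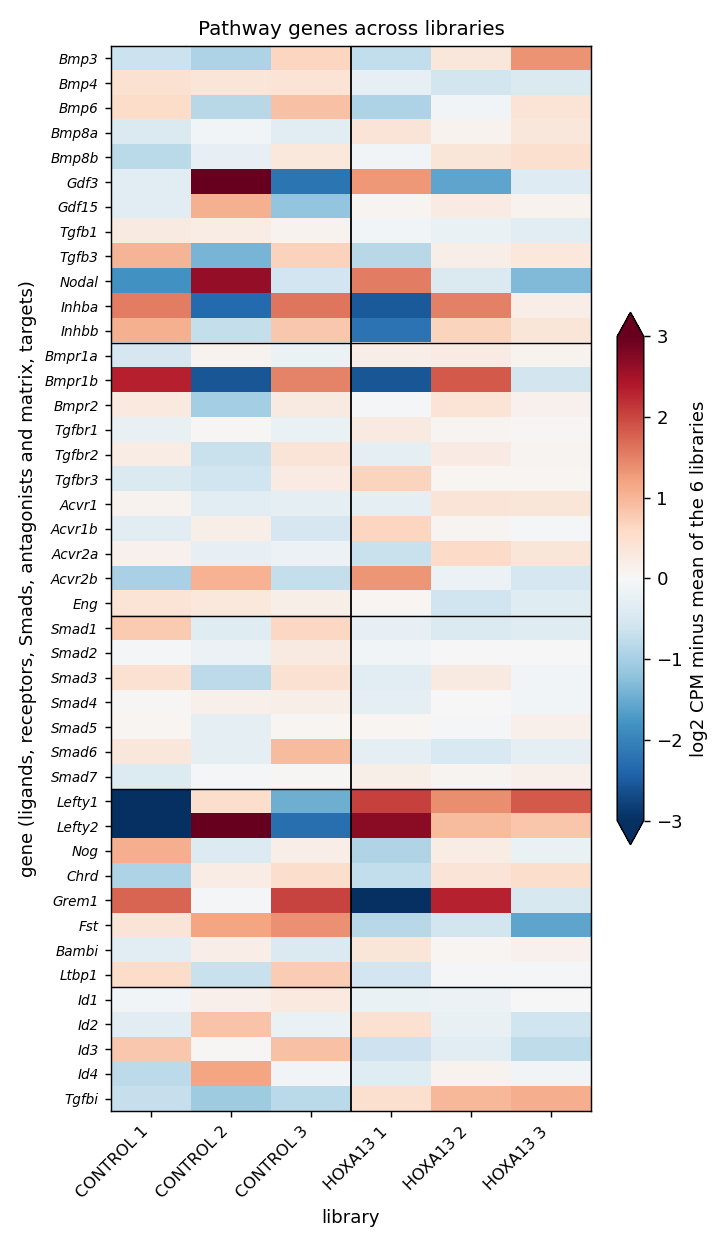
Log2 CPM of each of the 43 genes tested in each library, relative to its mean over the 6 libraries, with genes in rows grouped as ligands, receptors, Smads, antagonists and matrix regulators, and targets. Gdf3, Nodal, Lefty1 and Lefty2 vary widely within CONTROL, while Bmp4 (149 to 157 CPM in CONTROL) and Tgfb1 (48.2 to 53.6 CPM) are nearly even there.

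Levels of different genes were compared per length of exon. In CPM per kilobase of exon, the targets Id2 (90.3), Id1 (79.0) and Id3 (69.1) and the ligand Bmp4 (68.5) were the most abundant of these genes in CONTROL, followed by Bmpr2 (44.6) and Smad7 (43.96). In HOXA13 the most abundant were Id2 (74.6) and Id1 (66.6), then Smad7 (53.0) and Bmpr2 (51.5), with Bmp4 at 39.1 and Id3 at 30.3. The order of these genes was not tested in either group. Id2 itself stood at 179 CPM in CONTROL replicate 2, against 78.7 and 86.2 CPM in CONTROL replicates 1 and 3. In HOXA13 replicate 1 it stood at 135 CPM, against 84.2 and 65.4 CPM in HOXA13 replicates 2 and 3. Its first place by group mean therefore depended on 1 library in each group. The other ligands of the 44 genes were lower than Bmp4 in CONTROL, with Inhba at 21.3, Tgfb1 at 20.1 and Bmp8b at 16.3, whereas Nodal was at 6.18 and Gdf3 at 3.69. Tgfbi was at 3.98 in CONTROL and 13.2 in HOXA13.

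CONTROL replicate 2 decided many of these values. Its level was at least 2-fold below that of both other CONTROL libraries for 9 of 43 genes (20.9%, against 10.8% of all genes), namely Bmp6, Tgfb3, Inhba, Inhbb, Bmpr1b, Bmpr2, Smad3, Grem1 and Ltbp1. It was at least 2-fold above both for 8 (18.6%, against 9.68%), namely Gdf3, Gdf15, Nodal, Acvr2b, Lefty1, Lefty2, Id2 and Id4. When it was left out, edgeR called 8 of the 43 genes, beside 14.2% of all genes. These were Bmp4, Fst, Id3, Ltbp1 and Smad1, which were lower in HOXA13, and Lefty1, Lefty2 and Tgfbi, which were higher. Over the alternatives of scaling, filter, tool and libraries left out, the adjusted p ran from 6.21e-06 to 0.388 for Tgfbi, from 2.39e-05 to 0.425 for Fst, from 0.00101 to 0.496 for Bmp4 and from 0.00133 to 0.513 for Id3. It ran from 0.00472 to 0.669 for Smad1, from 0.0187 to 0.885 for Ltbp1, from 0.0226 to 0.713 for Lefty1 and from 0.0158 to 0.985 for Lefty2, while for Nodal and Gdf3 the lowest were 0.307 and 0.529. DESeq2 on all 6 libraries called 4 (Bmp4, Fst, Id3 and Tgfbi), beside 5.05% of all genes, and edgeR without a filter on low counts called the same 4, beside 0.921%. The edgeR 4 method called Fst and Tgfbi, beside 0.779%. With limma voom and quality weights, which give less weight to a library that stands apart, 7 passed (Bmp4, Eng, Fst, Id3, Lefty1, Smad1 and Tgfbi), beside 15.4%.

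A further 69 genes of the pathways were listed, of which 50 could be tested and 0 passed in edgeR. At an unadjusted p threshold of 0.05 the count was 8 of 50, 1 higher and 7 lower, beside 14.1% of all genes (8.05% higher and 6.02% lower), and the groups did not overlap for 10 of 50, which equals the 20.0% of all genes. DESeq2 called 4, beside 5.05% of all genes, and limma voom with quality weights 12, beside 15.4%. The median log2 difference was -0.36, with 37 of 50 below 0, beside a median of -0.01 over all genes, of which 6961 of 13600 were below 0. Bmp7, a BMP of epithelia and kidney, was at 7.59, 13.7 and 8.17 CPM in CONTROL, against 22.5, 47.8 and 70.9 CPM in HOXA13. Each HOXA13 library was higher, with a log2 difference of 2.26 (SE 0.45) and an adjusted p of 0.0904, opposite in sign to that of Bmp4. Over the alternatives its adjusted p ran from 7.59e-05 (DESeq2) to 0.496, and it passed in 4 of 15. The 20 epithelial markers were all higher in HOXA13 as well, with a median log2 difference of 1.24. The part of epithelial cells in the Bmp7 values was not tested.

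The other listed genes with an unadjusted p under 0.05 and no overlap were all lower in HOXA13. Fstl1, a follistatin-like protein, was at 361, 216 and 269 CPM in CONTROL, against 165, 125 and 147 CPM in HOXA13 (log2 difference -0.95, SE 0.22, adjusted p 0.115). Its adjusted p ran from 0.00334 to 0.513 over the alternatives, of which 3 called it. Gdf6, a BMP of joints and eye, and Rgmb, a BMP co-receptor, had log2 differences of -2.24 and -0.85 (adjusted p 0.212 and 0.228, edgeR). With a library left out, the Gdf6 difference ranged from -3.44 to -1.84 and that of Rgmb from -1.04 to -0.71. Each of these genes was called under 2 of 15 alternatives. Bmp1, the protease that releases BMP from Chordin, and Tgif1, a Smad co-repressor, had differences of -0.33 and -0.34. The difference of Bmp1, a gene of chromosome 14, ran from -0.69 to -0.29 over the alternatives. With a library left out it ran from -0.38 to -0.29.

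The Nodal partners were examined whatever their values. Tdgf1, the Nodal co-receptor Cripto, was at 1.56, 27.7 and 0.525 CPM in CONTROL, against 2.07, 0.879 and 0 CPM in HOXA13. Foxh1, the DNA-binding partner of Smad2, was at 1.06, 45.3 and 7.27 CPM in CONTROL, against 36.9, 21.1 and 20.8 CPM in HOXA13. Both were highest in CONTROL replicate 2, like Nodal and Gdf3, and the order of the 6 libraries by Foxh1 level was the same as by Lefty2 level. The pluripotency marker sum gave this order too, except that HOXA13 replicates 2 and 3 (593 and 603 CPM) changed places. Cer1, a secreted Nodal and BMP antagonist of the anterior endoderm, had 0 counts in all 6 libraries.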

How the data were processed

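RNA of 3 CONTROL and 3 HOXA13 cultures was sequenced from stranded poly-A libraries (NEBNext Ultra Directional). The authors deposited raw counts for each gene symbol, made on build mm9 with TopHat2 2.0.14, the version in the submitters' processing notes, and HTSeq 0.6.1p1. The gene models, strandedness setting and handling of multiply mapped reads are not given in the sources used here, so overlapping and near-identical genes are uncertain, among them Bmp4, Bmp6, Bmp8b, Bmpr1a, Acvr2a, Chrd and Id4, whose exons overlap a gene on the other strand. Groups and replicate numbers came from the sample titles. The members and lists were chosen with earlier results of these data known.

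The analysis ran in edgeR 4.0.16 under R 4.3.3. Filtering by group (filterByExpr, minimum count 10, minimum total 15) kept 13600 of 24393 genes. TMM scaling was followed by glmQLFit and glmQLFTest with group as the only term, fitted to the 6 libraries, and by Benjamini-Hochberg adjustment over all genes tested, with a threshold of 0.05, and the biological coefficient of variation was 41.5%. DESeq2 1.42.0, the study's tool, limma 3.58.1 voom with quality weights, RLE and upper quartile scaling, other filters, the edgeR 4 method, a replicate block, an offset for chromosome and leaving out each library were alternatives. The offset subtracts the median of each chromosome in each library, from genes of at least 16 CPM. Replicates differed by more than sampling noise in every pair (chi-square per degree of freedom 16.5 to 136). The p-values set the difference between groups against the spread of samples within groups. Since the number of clones is not given, they cannot be taken to cover variation between clones.

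Values per library are given for genes without overlap between groups or with an unadjusted p under 0.05, for the 2 of highest mean CPM in each class, and for 16 regulators and read-outs whatever their values, 27 genes in all. Another 16 are given by ranges, and 1 was not tested. Of the other pathway genes 10 met the rule, those with an unadjusted p under 0.05 and no overlap and 3 Nodal partners, and 1 of them is not reported here. Gene positions and exon lengths are of GENCODE M1 on mm9, and promoter sequences of RefSeq on GRCm38.p6. The code was tested on simulated data.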

Additional observations from a re-analysis of the deposited data

How the results depend on the processing

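Of 15 alternatives, 6 called Tgfbi, and its log2 difference kept its sign in each, from 1.59 to 1.89. Of the pathway genes edgeR called 0 of 43 with RLE scaling (34 of all genes), 0 of 40 with a mean of at least 50 counts (9 of all genes), 4 of 44 with no filter (163), 2 with the edgeR 4 method (106), 0 relative to chromosome (1) and 0 to 8 with a library left out (0 to 2006). At an unadjusted p of 0.05 these counts of 0 stood beside 4 to 7 genes. DESeq2 called 4 (722 of all genes) and limma voom 7 (2101). Of the other pathway genes 1, 4 and 12 were called with no filter, DESeq2 and voom, and 0 to 13 with a library left out. A replicate block gave 0 calls (0 of all genes), with 6 of 43 at an unadjusted p of 0.05. Replicate numbers did not pair the samples, since same-numbered samples had correlations of -0.21, -0.271 and 0.0979 and 1 of 6 samples correlated best with its own number.

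The median over all 43 was 0.030 and that of ligands -0.19 under voom. With a library left out, medians ranged from -0.22 to -0.016 over all 43, from -0.54 to -0.0015 for ligands and from -0.51 to 0.18 for targets. Signs turned for Gdf3 (0.57 with voom, 0.20 with the replicate block, -2.79 to 1.31 with a library left out), Nodal (0.030 with voom, -2.12 to 1.52), Bmpr2 (-0.33 relative to chromosome, -0.13 to 0.38), Lefty2 (-0.43 relative to chromosome, -0.72 to 5.16), Smad2 (-0.17 to 0.055), Chrd (-0.25 to 0.38), Grem1 (-2.98 to 0.015), Id2 (-0.63 to 0.18) and Foxh1 (-0.030 to 2.64). The cause was not tested. DESeq2 gave no p for Lefty2. Bmp5, with 3 counts in all, did not pass the filter on low counts.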

Other observations

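Among the more abundant of the other pathway genes, regulators of TGF-beta and BMP ligands that varied with CONTROL replicate 2 were chosen after their values were seen. Thbs1, a matrix protein that activates latent TGF-beta, was at 3807, 874 and 3028 CPM in CONTROL, against 757, 1514 and 1306 CPM in HOXA13. Crim1, a BMP-binding membrane protein, was at 312, 76.5 and 362 CPM in CONTROL, against 68.3, 148 and 114 CPM in HOXA13. The mesenchymal marker sum put the 6 libraries in the same order as Thbs1. Crim1 gave that order too, except that CONTROL replicates 1 and 3 changed places. The part of mesenchymal cells in these values was not tested. For both genes CONTROL replicate 2 was close to the lowest HOXA13 library, and neither passed the test with all 6 libraries in edgeR (adjusted p 0.374 and 0.372), while limma voom with quality weights called both, beside 15.4% of all genes. Ctgf, a matricellular target of TGF-beta, did not share this order, at 690, 604 and 683 CPM in CONTROL, against 643.5, 977 and 1025 CPM in HOXA13. Its log2 difference of 0.42 did not pass in edgeR (adjusted p 0.414), while limma voom with quality weights called it.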
